A study of Homo sapiens with 62 samples.

Results

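The 30 genes described here encode the enzymes and regulators of cholesterol and fatty acid synthesis. They were found by their symbols in every deposited count table and were 30 of 58735 genes in the tables of A2058, AGS, HCT116 and MCF10A, and 30 of 48162 in those of A2780. Of these, 5 (PMVK, FDPS, HSD17B7, GGPS1 and LBR) lie on chromosome arm 1q, 1 (SQLE) lies on 8q and none lies on 7p. Engineered loss of an extra 1q or 8q therefore removes a copy of a few pathway genes and leaves the copy number of the others to the rest of the genome. The members were measured by poly-A RNA sequencing of 62 libraries in 16 groups, made from 5 human cell lines plated 24 hours before RNA extraction.

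Cells build cholesterol from acetyl units. The mevalonate enzymes make isoprenoid building blocks, squalene is formed from them and closed into lanosterol, and a series of sterol enzymes turns lanosterol into cholesterol. The transcription factors SREBP-1 and SREBP-2, encoded by SREBF1 and SREBF2, raise transcription of nearly all of these genes. They are carried from the endoplasmic reticulum for activation by SCAP when sterols are scarce, and are held back by INSIG1 when sterols are plentiful. SREBF2 and INSIG1 are themselves SREBP targets, and the fatty acid enzymes ACLY, FASN and SCD answer mainly to SREBP-1, which is also induced by the sterol-sensing LXR receptors.

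A2058 is a melanoma line with extra 1q, 7p and 8q, and its groups were WT (4 libraries), 1q-loss (4 libraries of 2 clones), 7p-loss (6 libraries of 3 clones) and 8q-loss (4 libraries of 2 clones), all loss clones made by the method labelled ReDACT-CO. AGS is a gastric cancer line with extra 1q, and had 1 WT library, 2 libraries of TK+ integrant clones that kept the gain, and 5 libraries of 1q-loss, each from a clone of its own. Of these AGS clones, 1, 4, 6 and 7 were labelled ReDACT-NS and clone 11 ReDACT-CO. A2780 is an ovarian cancer line with extra 1q, and had 2 WT libraries, 2 TK+ libraries that kept the gain, and 6 libraries of 1q-loss clones 2, 5 and 6, labelled ReDACT-NS. MCF10A is a non-cancerous breast epithelial line with 2 WT libraries and 8 libraries of 1q-loss clones 1 to 4, where clones 1 to 3 were labelled ReDACT-TR and clone 4 ReDACT-CO. The same layout of 2 WT and 8 1q-loss libraries was sequenced from MCF10A cells expressing hRASV12, called MCF10A hRas below. HCT116 is a colorectal cancer line with extra 8q, and had 2 WT libraries and 4 libraries of 8q-loss clones 1 and 2, labelled ReDACT-CO. All loss lines were grown from single cells, so libraries of 1 clone share every change of that clone, and p-values measure the spread between these libraries.

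Libraries held 15042068 to 30984036 counts. WT A2058 cells carried the melanocyte markers SOX10 (590 CPM, the usual unit of counts scaled to a common library size) and PMEL (1329), AGS and HCT116 carried the epithelial markers EPCAM (722 and 78.0) and KRT8 (2578 and 3103), and MCF10A carried the basal markers KRT5 (4132) and TP63 (71.8). In A2780 the ovarian markers PAX8 (0.0986 CPM) and WT1 (0) were at or near 0. Loss of the targeted arm was visible in every clone. The median difference of 1q genes from control ran from -0.56 to -0.28 on the log2 scale over the 1q-loss clones, that of 7p genes from -0.53 to -0.45 over the 7p-loss clones, and that of 8q genes from -0.63 to -0.51 over the 8q-loss clones. The -0.28 belonged to MCF10A hRas 1q-loss clone 3, beside -0.45, -0.44 and -0.41 in hRas clones 1, 2 and 4. An even fall from 3 copies to 2 would give -0.585.

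Promoter sequences are shown first because the members are known as a coordinately regulated set, and because they let the 1q members be set beside members elsewhere. RefSeq (GRCh38.p14) gave a window of 250 bases before to 50 bases after the transcription start for 26 of the 30 members. The 200 bases before the start are printed 5′ to 3′ on the strand of the gene for 4 of the 1q members: PMVK (chr1:154936720-154936919, minus strand), FDPS (chr1:155308666-155308865, plus strand), HSD17B7 (chr1:162790502-162790701, plus strand) and LBR (chr1:225428822-225429021, minus strand). Capitals mark 3 motifs, read on both strands. The CCAAT box has the letters CCAAT and reads ATTGG in reverse. The letters of the GC box are GGGCGG, which in reverse read CCGCCC. For the sterol regulatory element the form TCACNCCAC was searched. FDPS holds 3 CCAAT boxes, HSD17B7 holds 2 in the whole window, and LBR holds none of the 3 motifs.
PMVK: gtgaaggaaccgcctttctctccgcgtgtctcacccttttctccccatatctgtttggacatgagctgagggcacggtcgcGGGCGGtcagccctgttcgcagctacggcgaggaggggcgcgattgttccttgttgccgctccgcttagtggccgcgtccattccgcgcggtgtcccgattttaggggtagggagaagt
FDPS: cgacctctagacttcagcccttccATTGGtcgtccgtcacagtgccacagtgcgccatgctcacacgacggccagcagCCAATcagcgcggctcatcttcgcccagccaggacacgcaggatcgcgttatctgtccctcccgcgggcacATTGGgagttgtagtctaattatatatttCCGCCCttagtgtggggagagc
HSD17B7: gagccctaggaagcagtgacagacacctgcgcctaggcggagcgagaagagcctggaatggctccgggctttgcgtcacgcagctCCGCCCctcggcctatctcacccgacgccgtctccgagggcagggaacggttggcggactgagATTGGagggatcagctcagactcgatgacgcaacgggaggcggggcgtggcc
LBR: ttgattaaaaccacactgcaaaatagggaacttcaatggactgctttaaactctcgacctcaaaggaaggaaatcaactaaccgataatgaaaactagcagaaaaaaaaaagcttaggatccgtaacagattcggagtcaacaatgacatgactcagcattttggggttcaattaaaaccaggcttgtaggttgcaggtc

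For comparison, the next windows belong to 5 members outside 1q. They are HMGCS1 (chr5:43313413-43313612, minus strand), MVK (chr12:109573594-109573793, plus strand), MVD (chr16:88663092-88663291, minus strand), MSMO1 (chr4:165327469-165327668, plus strand) and SREBF2 (chr22:41832905-41833104, plus strand). The letters TCACNCCAC occurred in SREBF2 alone of the 26 members, and in 1.15% of all 27305 promoters of this length. CCAAT was found in 17 of 26 members against 35.7% of all promoters, and GGGCGG in 22 of 26 against 44.6%. A match describes letters in this window, and its absence says nothing of binding.
HMGCS1: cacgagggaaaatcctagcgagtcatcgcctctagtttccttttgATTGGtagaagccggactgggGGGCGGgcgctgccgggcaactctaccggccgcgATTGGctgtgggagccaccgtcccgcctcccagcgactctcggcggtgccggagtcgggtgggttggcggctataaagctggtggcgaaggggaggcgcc
MVK: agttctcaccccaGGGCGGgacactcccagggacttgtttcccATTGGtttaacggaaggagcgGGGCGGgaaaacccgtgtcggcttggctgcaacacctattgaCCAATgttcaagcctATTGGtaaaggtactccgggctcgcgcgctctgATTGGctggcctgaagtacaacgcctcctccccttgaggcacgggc
MVD: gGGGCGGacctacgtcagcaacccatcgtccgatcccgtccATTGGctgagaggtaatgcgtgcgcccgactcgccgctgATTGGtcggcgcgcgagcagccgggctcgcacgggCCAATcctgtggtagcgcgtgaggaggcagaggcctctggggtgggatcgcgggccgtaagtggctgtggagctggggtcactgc
MSMO1: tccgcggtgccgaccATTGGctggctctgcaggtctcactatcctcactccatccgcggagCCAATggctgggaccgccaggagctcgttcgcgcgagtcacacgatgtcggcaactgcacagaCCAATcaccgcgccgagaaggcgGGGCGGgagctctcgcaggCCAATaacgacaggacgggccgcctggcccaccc
SREBF2: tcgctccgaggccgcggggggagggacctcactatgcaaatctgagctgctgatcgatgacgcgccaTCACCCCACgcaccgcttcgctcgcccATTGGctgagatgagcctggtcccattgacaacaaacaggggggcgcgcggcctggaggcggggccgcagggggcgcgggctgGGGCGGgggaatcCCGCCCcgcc

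The members differed widely in level between the lines before any arm was lost. Levels of different genes are compared here as mean CPM per kilobase of transcript length in WT libraries. SCD, the desaturase that makes monounsaturated fatty acids, stood at 107 in A2058, 180 in AGS and 204 in MCF10A. FASN, the fatty acid synthase, stood at 50.3 in A2058, 34.4 in AGS, 116 in MCF10A, 231 in A2780 and 220 in HCT116. SQLE, the squalene epoxidase, ran from 0.00982 in HCT116 through 9.04 in A2058 and 13.4 in AGS to 33.9 in A2780 and 91.6 in MCF10A. CYP51A1, the lanosterol demethylase, had few counts in every line, at 0.923 to 5.92, but other genes overlap it on the same strand and its reads are uncertain. A2780 counts come from another annotation, so its levels per kilobase are set beside the others only roughly.

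The controls of each loss group were the WT and TK+ libraries of that line, and groups were compared by the quasi-likelihood test of edgeR over all genes that passed a filter on low counts. A gene is called higher or lower where its Benjamini-Hochberg adjusted p over all genes tested was under 0.05, and SE is the standard error of the log2 fold change. Values per library are CPM after scaling. Where 1q was lost, its members had fold changes below 0 with the exception of FDPS in AGS, while the other members took different directions in different lines, as the map of fold changes shows.

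**Figure D1:**
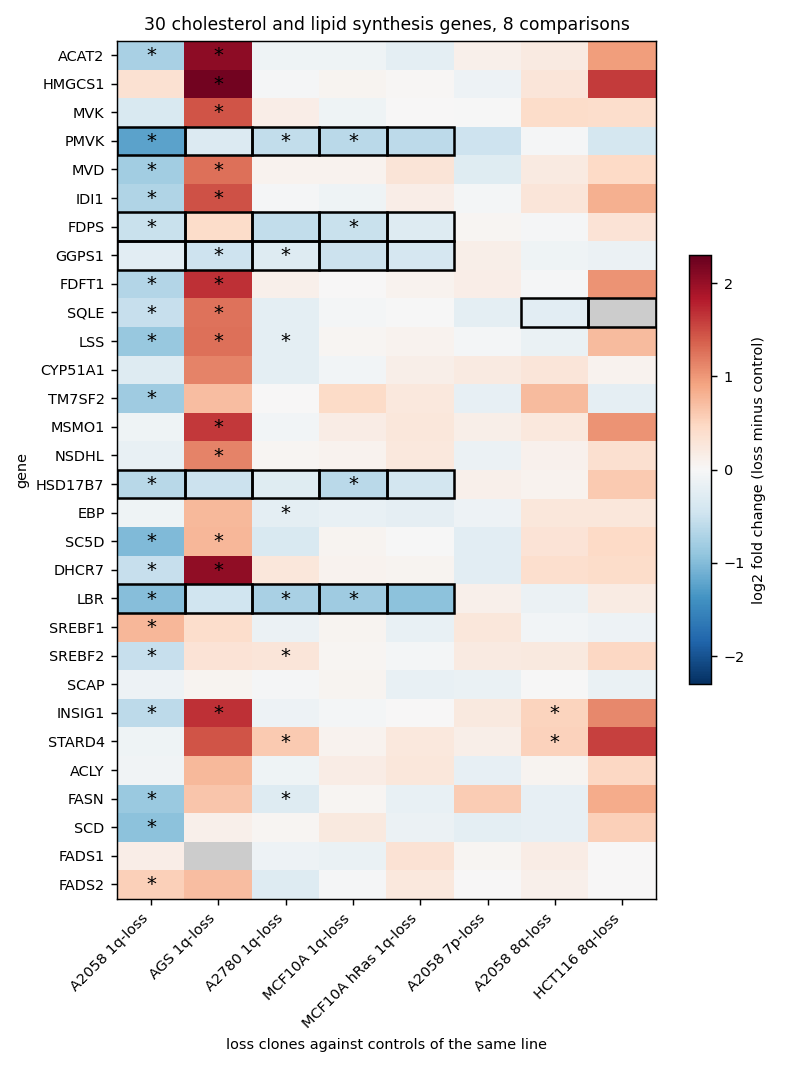
Map of log2 fold changes of the 30 members (rows) in the 8 loss comparisons (columns), blue for lower and red for higher, with stars at called genes, boxes at genes on the targeted arm and grey where a gene was not tested. The A2058 1q-loss column is mostly blue with 17 lower calls, the AGS 1q-loss column is mostly red with 13 higher calls, and the MCF10A columns are pale outside the boxed 1q genes.

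The 5 members on 1q gave 25 fold changes over the 5 backgrounds that lost 1q, of which 24 were below 0 and 12 were called lower. PMVK and LBR were each called in 3 backgrounds, and FDPS, GGPS1 and HSD17B7 in 2 each. The median over the 5 members was -0.64 in A2058, -0.57 in A2780, -0.62 in MCF10A, -0.42 in MCF10A hRas and -0.46 in AGS. Over all genes tested on 1q it was -0.46, -0.45, -0.49, -0.36 and -0.54.

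In A2058, 4 of the 5 members on 1q were called lower, against 59.7% of the 677 genes tested on that arm. PMVK, the phosphomevalonate kinase (chr1:154924734-154936991, minus strand, GRCh38), read 18.3 and 19.2 CPM in 1q-loss clone 1 and 19.8 and 19.4 in clone 2. The 4 WT libraries read 39.5, 37.997, 43.8 and 58.6. The groups stood apart, and the log2 fold change was -1.23 (SE 0.13, edgeR adjusted p = 2.54e-05), further from 0 than the median of -0.46 over the arm. In bulk RNA, fewer expressing cells and less RNA per cell cannot be told apart. LBR, the lamin B receptor, which also carries sterol reductase activity (chr1:225401502-225428925, minus strand), read 105, 91.1, 92.6 and 73.8 CPM in 1q-loss. WT libraries read 205, 196, 177 and 131, again with no overlap (log2 fold change -0.97, SE 0.15, edgeR adjusted p = 0.000283).

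FDPS, the farnesyl diphosphate synthase (chr1:155308748-155320666, plus strand), read 50.1, 48.5, 50.7 and 51.4 CPM in A2058 1q-loss and 66.9, 67.2, 77.1 and 75.04 in WT. Its fold change of -0.51 (SE 0.066, edgeR adjusted p = 9.87e-05) was close to that of the arm. HSD17B7, a sterol ketoreductase (chr1:162790702-162812817, plus strand), read 5.92, 4.64, 5.87 and 5.40 CPM in 1q-loss and 8.83, 8.22, 8.68 and 8.33 in WT (log2 fold change -0.64, SE 0.13, edgeR adjusted p = 0.00174). Both genes separated the groups. GGPS1, the geranylgeranyl diphosphate synthase (chr1:235327350-235344532, plus strand), was not called. It read 14.2, 13.5, 12.95 and 15.9 CPM in 1q-loss and 17.9, 17.1, 14.9 and 16.5 in WT, which overlap (log2 fold change -0.23, SE 0.11, edgeR adjusted p = 0.0896). Reads of GGPS1 are uncertain where it overlaps TBCE and ARID4B, those of FDPS where it overlaps RUSC1-AS1, and those of HSD17B7 can be shared with its pseudogene HSD17B7P2.

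In A2780, 3 of the 5 members on 1q were called lower, against 48.7% of 647 genes on that arm. LBR had a lowest, median and highest of 92.6, 137 and 153 CPM over the 6 1q-loss libraries, against 218 and 196 in TK+ and 221 and 224 in WT. The groups stood apart (log2 fold change -0.75, SE 0.14, edgeR adjusted p = 0.0059), and the fall was present in all 3 clones, at -1.16, -0.65 and -0.51. PMVK had 30.04, 37.1 and 44.9 CPM in 1q-loss against 58.4 and 46.9 in TK+ and 59.2 and 55.6 in WT (log2 fold change -0.57, SE 0.12, edgeR adjusted p = 0.0112). GGPS1, not called in A2058, had 26.4, 30.8 and 33.6 CPM against 37.5 and 37.2 in TK+ and 37.1 and 37.6 in WT, with groups apart (log2 fold change -0.30, SE 0.072, edgeR adjusted p = 0.0218), but its call was lost when any 1 control library was left out. FDPS was scarce in this line, with 4.89, 7.31 and 8.60 CPM against 8.99, 10.04, 9.13 and 13.01, and its fold change of -0.57 (SE 0.18) was not called by edgeR (adjusted p = 0.0592), while DESeq2 called it lower (adjusted p = 0.0167). HSD17B7 overlapped its controls (4.77, 6.89 and 8.55 CPM against 9.65, 8.16, 6.46 and 7.84) and was not called (-0.29, edgeR adjusted p = 0.31). With TK+ as the only controls the calls of LBR and PMVK were lost (edgeR adjusted p = 0.0716 and 0.128).

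In MCF10A, 4 of the 5 were called lower, against 34.6% of 710 genes of 1q, and in all 5 every 1q-loss library lay below both WT libraries. HSD17B7 had a lowest, median and highest of 20.7, 24.3 and 25.6 CPM over 8 libraries against 37.7 and 35.4 in WT (log2 fold change -0.62, SE 0.099, edgeR adjusted p = 0.00424). PMVK had 18.2, 21.96 and 23.9 against 35.7 and 29.8 (-0.62, SE 0.11, edgeR adjusted p = 0.00939). These 2 falls were of nearly the same size in each of the 4 clones, from -0.54 to -0.69 for PMVK and from -0.56 to -0.78 for HSD17B7. LBR had 84.6, 126 and 163 against 231 and 215 (-0.82, SE 0.18, edgeR adjusted p = 0.03), and FDPS had 122, 156 and 178 against 215 and 225 (-0.52, SE 0.12, edgeR adjusted p = 0.0477). The calls of LBR and FDPS were both lost with the libraries of each clone summed, and without clone 2. Of the 5 genes, LBR varied most between clones, from -0.54 in clone 1 to -1.27 in clone 4. GGPS1 had 13.8, 14.8 and 18.5 against 21.3 and 21.8 and was not called by edgeR (-0.50, SE 0.12, adjusted p = 0.0667), while DESeq2 called it lower (-0.49, adjusted p = 0.0125). With only 2 WT libraries, leaving out either of them ended every call of a member in this comparison.

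In MCF10A hRas none of the 5 was called by edgeR, where 3.47% of 720 genes of 1q were called lower. All 5 had an unadjusted p under 0.05 and all 5 lay below both WT libraries. LBR had 81.6, 127 and 149 CPM against 228 and 231 (log2 fold change -0.94, SE 0.22, edgeR adjusted p = 0.128), and DESeq2 called it lower (-0.94, adjusted p = 0.014). PMVK had 15.5, 23.8 and 32.7 against 36.2 and 36.6 (-0.60, SE 0.24, edgeR adjusted p = 0.313), with clones spread from -1.13 in clone 4 to -0.22 in clone 3. FDPS, GGPS1 and HSD17B7 had fold changes of -0.30, -0.38 and -0.42, with edgeR adjusted p of 0.267, 0.284 and 0.287. HSD17B7 read 17.4 to 27.2 CPM against 28.3 and 27.8, and FDPS 134 to 168 against 185 and 194. GGPS1 read 12.9 to 17.2 against 19.6 and 18.8. Genes of 1q had a median difference of -0.28 in clone 3, the smallest fall of these clones. The part of this in the members' levels was not tested.

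In AGS 1 of the 5 members on 1q was called lower against 32.2% of 659 genes of 1q. GGPS1 read 22.5, 25.8, 21.1, 23.7 and 23.7 CPM in 1q-loss clones 1, 4, 6, 7 and 11, below the 33.5 and 28.8 of the TK+ clones and the 35.3 of WT (log2 fold change -0.47, SE 0.12, edgeR adjusted p = 0.0432). FDPS went the other way in clones 1, 4, 6 and 7, at 51.2, 59.7, 57.7 and 52.4 CPM against 38.8, 40.7 and 31.8 in the controls. Clone 11 read 26.0, below all 3 controls, and over the 5 clones the fold change was 0.42 (SE 0.25, edgeR adjusted p = 0.313). Without clone 11, FDPS was called higher (0.58, edgeR adjusted p = 0.0231), while the median of 1q genes was -0.52 or lower in every clone. PMVK read 30.7, 22.4, 21.1, 15.4 and 19.6 CPM against 29.2, 22.9 and 30.1 (-0.32, edgeR adjusted p = 0.364). LBR read 158, 164, 91.3, 97.3 and 112 against 139, 181 and 198 (-0.46, edgeR adjusted p = 0.212). Both overlapped the controls.

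HSD17B7 was absent from the counts of 2 AGS clones. It had 137 and 117 counts in 1q-loss clones 1 and 4, 0 in clones 6 and 7 and 94 in clone 11, against 82 and 94 in TK+ and 135 in WT. With 3 counts taken as the limit that a count of 0 allows in each library, its level was at least 33.8-fold lower in clone 6 and at least 30.3-fold lower in clone 7 than the mean of the 3 controls. This covers counting error only. The pseudogene HSD17B7P2 had 67 to 68 counts in these clones and 32 to 57 in the other 6 AGS libraries. The neighbouring genes UHMK1, UAP1 and NUF2 had 1693 to 1760, 927 to 979 and 249 to 256 counts in clones 6 and 7, against 1502 to 4092, 1165 to 2107 and 260 to 623 in the other 6 libraries. UAP1 and NUF2 were thus at their lowest in these clones, but the zero was not shared by the genes beside it. Clones 6 and 7 also differed less from each other than any other pair of AGS loss clones, with a chi-square per degree of freedom of 4.51 over genes against 11.4 to 48.7. That lies below every other pair of libraries of different clones in any line, which gave 10.1 or more, and inside the range of libraries of 1 clone, which gave 2.83 to 47.3. Clones 6 and 7 were kept as separate samples, as labelled, and with their sum as 1 sample 2 members were called in place of 14.

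**Figure D2:**
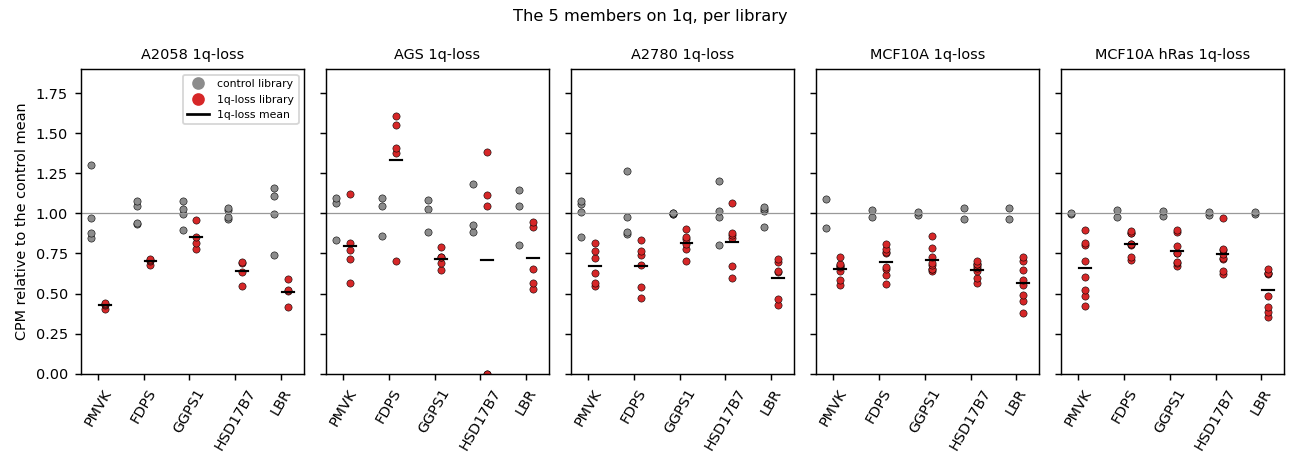
CPM of the 5 members on 1q divided by the mean of the control libraries of the same line, 1 point per library, grey for controls and red for 1q-loss, with a line at the 1q-loss mean. In MCF10A all 1q-loss points lie below the controls for every gene, in AGS FDPS lies above 1 in 4 of 5 clones, and the 2 points at 0 are HSD17B7 in AGS clones 6 and 7.

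Outside 1q, the A2058 1q-loss clones had lower levels of a part of the mevalonate and sterol enzymes and of SCD and FASN, together with a higher SREBF1. Of 25 members tested, 13 were called lower and 2 higher, against 22.7% lower and 26% higher of the 14710 genes tested outside 1q. The median log2 fold change of the members was -0.52, against 0.016 over those genes. The background is large in this comparison, so a call by itself says little. By role, 3 of 5 mevalonate enzymes, 6 of 10 sterol enzymes, 2 of 5 regulators and 2 of 5 fatty acid genes were called lower, and 1 regulator and 1 fatty acid gene were called higher. In 12 members all 4 1q-loss libraries lay below all 4 WT libraries, and in 2 all lay above. How many of all genes stood apart in this way was not counted. The 1q-loss libraries also had low levels of the melanocyte markers. All 5 markers of that list were lower in every 1q-loss library than in any WT library, and their summed level was 43.8 to 134 CPM against 1656 to 2687. SOX10 averaged 54.0 against 590 CPM, MITF 17.2 against 171, PMEL 17.3 against 1329, MLANA 1.44 against 20.1 and TYR 0.432 against 122. The 5 epithelial markers summed to 167 to 212 CPM against 80.3 to 107, with EPCAM, CDH1 and KRT19 at or near 0 in both groups, and the 3 basal markers to 0.290 to 15.8 against 0.173 to 0.457, with TP63 at 0 in WT and at 0.242 to 15.7 in 1q-loss. The part of this shift in the members' levels was not tested.

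SC5D, which puts in a late double bond of the sterol ring, had the largest fall among them. It read 16.1 and 18.9 CPM in clone 1, 23.7 and 23.4 in clone 2, and 44.9, 41.8, 39.9 and 38.6 in WT (log2 fold change -1.01, SE 0.12, edgeR adjusted p = 7.51e-05). LSS, the lanosterol synthase, read 40.4, 30.1, 47.5 and 46.7 against 74.5, 72.8, 81.5 and 73.2 (-0.88, SE 0.13, edgeR adjusted p = 0.000231). Both were lowest in clone 1. TM7SF2, a sterol reductase, read 5.49, 5.61, 6.89 and 8.72 against 12.2, 8.96, 9.93 and 16.2 (-0.82, SE 0.22, edgeR adjusted p = 0.00904), and this call was lost under 3 of 19 alternatives, among them without clone 1. Its reads are uncertain, since it overlaps VPS51 on the same strand. FDFT1, the squalene synthase, read 91.4, 83.0, 91.5 and 84.2 against 141, 148, 142 and 127 (-0.68). SQLE on 8q read 27.1, 28.4, 25.9 and 27.0 against 34.6, 35.9, 42.4 and 42.7 (-0.52). DHCR7, the last enzyme of the Kandutsch-Russell branch, was the only called sterol gene here whose groups overlapped (33.9 to 57.2 against 53.9 to 70.1, -0.52), and its call was lost under 7 of 19 alternatives, among them without clone 1. CYP51A1 (-0.29), NSDHL (-0.16), MSMO1 (-0.10) and EBP (-0.09), all enzymes between lanosterol and cholesterol, were not called, with edgeR adjusted p of 0.253, 0.211, 0.496 and 0.527.

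Among the mevalonate enzymes, ACAT2, the cytosolic thiolase that opens the pathway, read 29.5, 26.4, 32.2 and 29.1 CPM against 50.2, 52.0, 50.6 and 44.1 in WT (log2 fold change -0.75, SE 0.083, edgeR adjusted p = 3.67e-05). MVD, the decarboxylase, read 13.3, 13.4, 16.6 and 15.6 against 20.7, 21.2, 31.1 and 29.4 (-0.80, SE 0.15, edgeR adjusted p = 0.00135). IDI1, the isopentenyl isomerase, read 35.2, 33.0, 44.6 and 41.9 against 62.3, 61.7, 59.8 and 64.5 (-0.68). All 3 separated the groups. MVK was not called (-0.36, edgeR adjusted p = 0.0535). HMGCS1, the synthase that feeds the mevalonate path, was the exception. It read 37.2 and 39.8 CPM in clone 1, inside the WT range of 35.4 to 40.9, but 62.7 and 60.6 in clone 2, and was not called (0.35, SE 0.16, edgeR adjusted p = 0.098). ACAT2 overlaps TCP1 on the other strand and MVK overlaps MMAB.

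The fatty acid genes split. SCD read 288, 233, 369 and 306 CPM in 1q-loss against 549, 555, 587 and 592 in WT (log2 fold change -0.94, SE 0.12, edgeR adjusted p = 8.25e-05), and FASN read 284, 253, 285 and 224 against 437, 437, 525 and 484 (-0.85, SE 0.092, edgeR adjusted p = 3.01e-05). ACLY, which makes cytosolic acetyl-CoA from citrate, had a fold change of -0.08 (edgeR adjusted p = 0.277). FADS2, a desaturase of polyunsaturated fatty acids, was called higher at 41.3, 38.5, 47.2 and 44.7 against 27.8, 29.6, 30.6 and 29.6 (0.54). Its reads are uncertain where it overlaps FEN1 on the same strand and FADS1 on the other.

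Of the regulators, SREBF1 and SREBF2 moved in opposite directions in A2058 1q-loss. SREBF1 read 273, 232, 300 and 271 CPM against 168, 144, 182 and 141 in WT (log2 fold change 0.76, SE 0.10, edgeR adjusted p = 0.000133). SREBF2 read 82.4, 79.3, 110 and 97.8 against 122, 129, 143 and 141 (-0.54, SE 0.10, edgeR adjusted p = 0.00155). INSIG1 fell as well, from 41.9, 46.3, 54.5 and 49.4 in WT to 27.96, 29.3, 38.3 and 32.0 (-0.59, SE 0.11, edgeR adjusted p = 0.00138). SCAP (-0.11, edgeR adjusted p = 0.166) and STARD4, a sterol carrier (-0.10, edgeR adjusted p = 0.634), were not called. On the other strand SREBF1 overlaps RAI1, SREBF2 overlaps SREBF2-AS1 and STARD4 overlaps STARD4-AS1, where reads are uncertain.

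A list of 21 further genes of lipid synthesis, sterol transport and the LXR response was tested beside the members, all 21 in A2058, where 10 were called higher and 4 lower, beside 26% higher and 22.7% lower of the genes outside 1q. The cholesterol exporter ABCA1 had 135 to 292 counts in the 4 1q-loss libraries and 4 to 9 in WT (log2 fold change 4.999, SE 0.33, edgeR adjusted p = 1.03e-06). ABCG1, another exporter, had 220 to 324 counts against 0 to 5, and its fitted value depends on the prior count. ME1, the malic enzyme that supplies NADPH, had 2992 to 4890 counts against 1224 to 1443 (1.49, SE 0.11, edgeR adjusted p = 2.56e-06). The 4 called lower were TMEM97 (-1.43), MYLIP (-0.74), ACSL3 (-0.72) and SOAT1 (-0.49), of which SOAT1 lies on 1q.

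**Figure D3:**
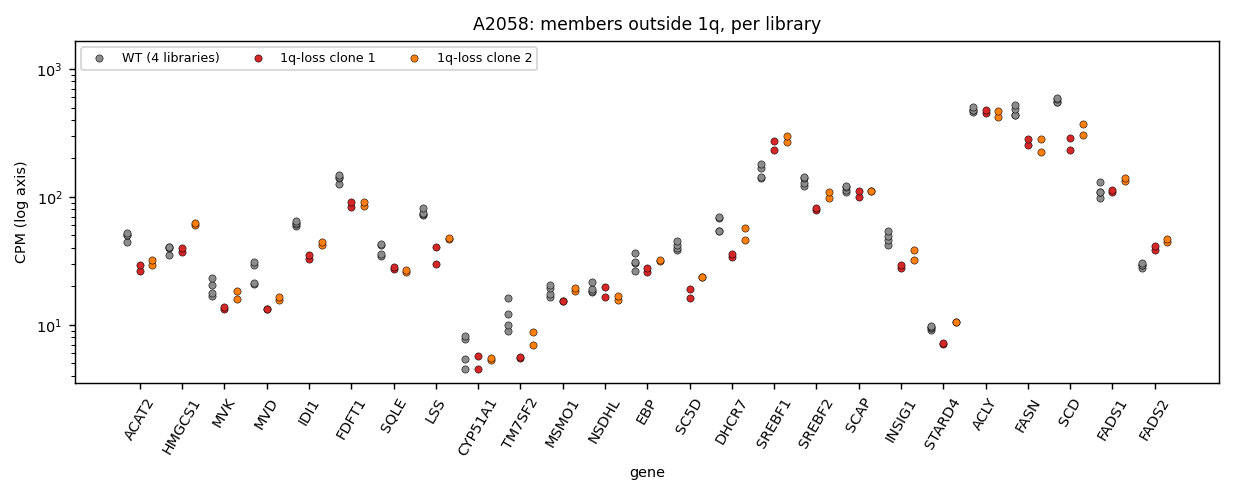
CPM (log axis) of the members outside 1q in A2058, 1 point per library, grey for the 4 WT libraries, red for 1q-loss clone 1 and orange for clone 2. In 12 genes all coloured points lie under the grey ones, while SREBF1 and FADS2 lie over them and HMGCS1 is high in clone 2 alone. No such count was made over all genes.

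In AGS the same loss came with the opposite pattern outside the arm: 13 of 24 members tested were called higher and 0 lower, against 3.46% higher and 2.88% lower of the 14329 genes tested outside 1q. No member outside 1q had a fold change below 0, and the median was 1.19 against 0.020 over those genes. All 5 mevalonate enzymes outside 1q were called, with 7 of 10 sterol enzymes, 1 of 5 regulators and 0 of 4 fatty acid genes. FADS1 had 1 to 24 counts and was not tested. The 5 clones did not act alike. In 20 of the 24 members clones 1, 4, 6 and 7 all lay above the 3 controls. Clone 11 lay within the control range in 13, above it in 8 and below it in 3. How many of all genes did so was not counted. Clones 6 and 7 were also close to each other (chi-square per degree of freedom 4.51). Clone 11 was also the only ReDACT-CO clone of AGS, so clone and method cannot be told apart. The 5 epithelial markers summed to 6846 to 9286 CPM in 1q-loss against 4338 to 5912 in the controls. The 3 basal markers summed to 2.79 to 43.8 CPM against 1.52 to 1.89, with KRT5 at 0.333 to 30.3 against 0.0592 to 0.194 and TP63 at or near 0 in both groups. The part of these shifts in the members' levels was not tested.

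HMGCS1 was among the genes that showed this split between clones. It read 161, 224, 216 and 182 CPM in clones 1, 4, 6 and 7 and 44.3 in clone 11, against 44.3 and 32.0 in TK+ and 31.4 in WT (log2 fold change 2.21, SE 0.46, edgeR adjusted p = 0.0256). ACAT2 read 74.8, 76.3, 41.5 and 33.5, and 12.3 in clone 11, against 14.97, 10.3 and 9.40 (2.05, SE 0.54, edgeR adjusted p = 0.0496). MVK, the mevalonate kinase, read 21.9, 22.1, 23.4 and 22.7, and 9.78 in clone 11, against 6.84, 7.40 and 7.72 (1.45, SE 0.28, edgeR adjusted p = 0.0197). MVK is a gene in which clone 11 too stood above all controls. IDI1 read 68.5, 87.4, 72.0 and 65.3, and 21.4 in clone 11, against 27.8, 20.8 and 20.5 (1.46, SE 0.38, edgeR adjusted p = 0.0499).

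In the sterol enzymes DHCR7, FDFT1 and MSMO1 too, clone 11 read below the other 4 clones. DHCR7 read 223, 239, 179 and 149 CPM in clones 1, 4, 6 and 7 and 43.6 in clone 11, against 50.5, 37.4 and 34.5 in the controls (log2 fold change 2.04, SE 0.47, edgeR adjusted p = 0.0352). FDFT1 read 277, 170, 267 and 236, and 66.7 in clone 11, against 69.4, 53.9 and 67.6 (1.68, SE 0.41, edgeR adjusted p = 0.0382). FDFT1 lies on 8p, whose genes had a median difference of -0.57 in clone 4, the lowest of the 4 high clones for this gene. MSMO1, the sterol methyl oxidase, read 176, 236, 258 and 250, and 63.3 in clone 11, against 84.2, 49.5 and 57.8 (1.63, SE 0.42, edgeR adjusted p = 0.0471). The remaining called members were LSS (1.27), MVD (1.27), SQLE (1.24), NSDHL (1.15) and SC5D (0.76). LSS was highest in clone 4, at 221 CPM, where genes of its arm 21q had a median difference of 0.32. SC5D, DHCR7 and TM7SF2 lie on 11q, whose median was 0.39, 0.54, 0.038 and 0.039 in clones 1, 4, 6 and 7. The part of these arm shifts in the members' levels was not tested.

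INSIG1 was the only regulator called in AGS, at 65.6, 79.6, 76.3 and 75.4 CPM in clones 1, 4, 6 and 7 and 30.6 in clone 11, against 30.6, 13.5 and 17.4 in the controls (log2 fold change 1.68, SE 0.36, edgeR adjusted p = 0.0278). SREBF1 (0.41, edgeR adjusted p = 0.169), SREBF2 (0.32, edgeR adjusted p = 0.234) and SCAP (0.06, edgeR adjusted p = 0.785) were not called. Of 17 further pathway genes tested, ACSL3 (0.55, SE 0.12, edgeR adjusted p = 0.029) and NPC1 (0.53) were called higher, and MYLIP (-0.81, SE 0.17, edgeR adjusted p = 0.0284) and ELOVL6 (-0.96, SE 0.25, edgeR adjusted p = 0.0496) lower. MYLIP is a ubiquitin ligase of lipoprotein receptors and an LXR target. The adjusted p-values lay close to the threshold, and the number of members called in all was 0 without WT or without TK+ clone 2, and 1 without TK+ clone 1. It was 3, 5, 2 and 1 without clones 1, 4, 6 and 7, and 20 without clone 11, which added CYP51A1, ACLY, EBP, STARD4, FASN and FDPS. With clones 6 and 7 summed, an alternative chosen after seeing the data, 2 members were called in place of 14. DESeq2 called 18 members higher and 1 lower, beside 6.15% higher and 5.44% lower of all genes. Without clone 11 those shares were 5.83% and 6.1% by edgeR, and the calls over all genes, 1131 as reported, were 97 to 822 where another library was left out.

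**Figure D4:**
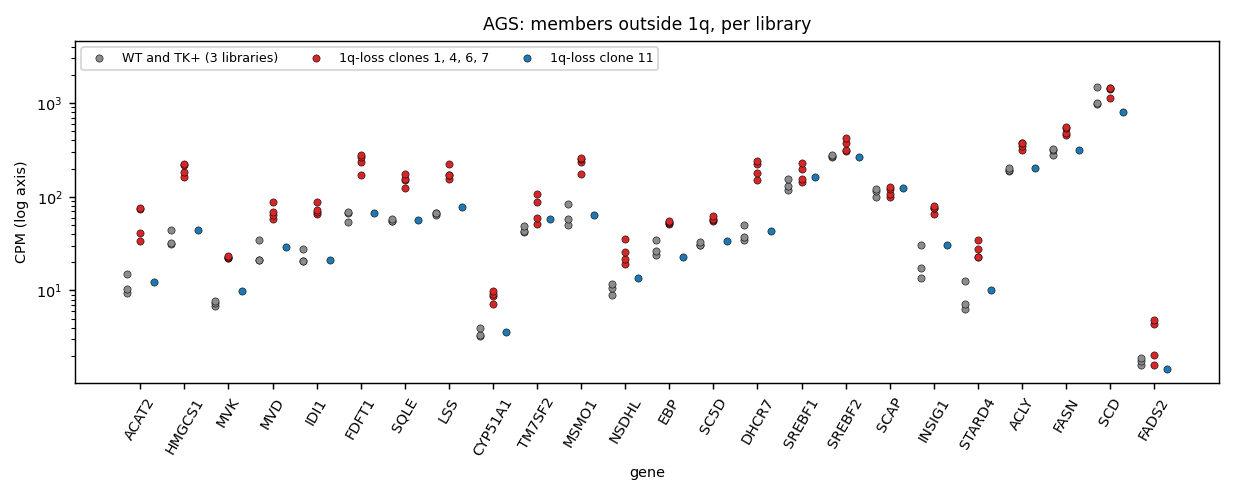
CPM (log axis) of the members outside 1q tested in AGS, 1 point per library, grey for the 3 controls (WT and TK+), red for 1q-loss clones 1, 4, 6 and 7 and blue for clone 11. The red points lie above the grey ones in 20 of 24 genes, and the blue point lies among the grey ones in 13. No such count was made over all genes.

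The difference between the lines was tested in a joint edgeR fit of A2058, AGS and MCF10A with a separate 1q-loss effect per line, a test chosen after these patterns were seen. Only genes that passed the filter in the own comparison of both lines are counted, which leaves FADS1 out of both differences with AGS. The 1q-loss effect was higher in AGS than in A2058 for 21 of 24 members outside 1q, against 16.5% higher and 14.5% lower of 12320 genes, with a median difference of 1.67 on the log2 scale. ACAT2 (2.83, SE 0.44, edgeR adjusted p = 3.08e-05), DHCR7 (2.59, SE 0.42, edgeR adjusted p = 4.87e-05) and FDFT1 (2.38, SE 0.34, edgeR adjusted p = 9.66e-06) differed most. It was higher in AGS than in MCF10A for 15 of 24, against 3.32% higher and 2.35% lower of 12789 genes, with a median of 1.22. MCF10A and A2058 differed in 7 of 25, of which 6 were higher in MCF10A (SC5D, SCD, FASN, SREBF2, LSS and TM7SF2) and SREBF1 was lower (-0.70, SE 0.23, edgeR adjusted p = 0.035), against 9.54% higher and 9.1% lower of 13194 genes. The 3 differences share lines and are not independent of each other. The fit gives each gene 1 spread for all 3 lines. Libraries of the same clone in A2058 and MCF10A thus count beside the separate AGS clones. The SE of ACAT2, DHCR7 and FDFT1 were smaller here than for AGS alone, so these p-values can overstate certainty.

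Of the 5 members on 1q, 2 also differed between AGS and A2058, 1 between AGS and MCF10A and 0 between MCF10A and A2058, against 33.4%, 5.65% and 22.5% of 1q genes. The effect on FDPS was 0.96 higher in AGS than in A2058 (SE 0.24, edgeR adjusted p = 0.00355) and 0.96 higher than in MCF10A (SE 0.24, edgeR adjusted p = 0.024). PMVK was 0.93 higher in AGS than in A2058 (SE 0.22, edgeR adjusted p = 0.00281). GGPS1 differed by -0.21 (SE 0.16, edgeR adjusted p = 0.367), LBR by 0.53 (SE 0.28, edgeR adjusted p = 0.196) and HSD17B7 by 0.17 (SE 0.83, edgeR adjusted p = 0.974) between AGS and A2058, which did not pass. The count of members differing between AGS and A2058 was 20 to 21 whichever AGS library was left out, and that between AGS and MCF10A ran from 9, without TK+ clone 2, to 18.

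A2780 showed small changes in both directions outside 1q. Of 25 members, 2 were called higher against 6.08% of 14397 genes and 3 lower against 3.96%, and the median was -0.07 against 0.020. STARD4 had a lowest, median and highest of 31.7, 45.7 and 52.7 CPM over 6 1q-loss libraries against 30.5 and 22.6 in TK+ and 29.1 and 31.2 in WT (log2 fold change 0.61, SE 0.17, edgeR adjusted p = 0.0417). Its rise was carried by clones 2 (0.72) and 5 (0.86) more than by clone 6 (0.18). SREBF2 had 177, 183 and 207 against 145, 150, 158 and 162 (0.28, SE 0.059, edgeR adjusted p = 0.0125). FASN had 1547, 1618 and 1753 against 1785 and 2206 in TK+ and 2000.1 and 1961 in WT (-0.29, SE 0.067, edgeR adjusted p = 0.0194). EBP, the sterol isomerase, had 37.8, 41.6 and 44.2 against 50.3, 48.6, 46.9 and 46.3 (-0.23, SE 0.060, edgeR adjusted p = 0.0314), and LSS had 70.5, 79.7 and 85.0 against 87.1, 87.7, 95.7 and 95.1 (-0.22, SE 0.059, edgeR adjusted p = 0.0357). The groups stood apart in all 5 genes. The calls of STARD4, EBP and LSS were nevertheless lost when any 1 of the 4 control libraries was left out, that of FASN under 7 of 16 alternatives, and that of SREBF2 with WT or TK+ as the only controls (highest edgeR adjusted p 0.129). The control groups themselves differed in the 5 epithelial markers, which summed to 172 to 181 CPM in WT, 6.13 to 8.89 in TK+ and 7.75 to 85.0 in 1q-loss, and the part of this in the members' levels was not tested.

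SREBF1 (-0.13, edgeR adjusted p = 0.353), SCAP (-0.02, edgeR adjusted p = 0.837) and INSIG1 (-0.12, edgeR adjusted p = 0.387) were not called in A2780. SC5D was not called either, but it read 3.41 and 1.78 CPM in clone 6 against 8.30 to 10.2 in clones 2 and 5, which is a difference from control of -1.83 in clone 6 and of 0.03 and 0.10 in the others. ACAT2 read 46.7 and 42.2 in clone 6 against 32.1 to 33.7 in clones 2 and 5, and genes of its arm 6q had a median difference of 0.33 in clone 6. Of 20 further pathway genes, none was called higher and 2 were called lower: the cholesterol acyltransferase SOAT1, itself on 1q (-0.49, SE 0.075, edgeR adjusted p = 0.00223), and LPIN1 (-0.31, SE 0.082, edgeR adjusted p = 0.0336).

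In MCF10A none of the 25 members outside 1q was called by edgeR or by DESeq2, and none had an unadjusted p under 0.05, in a comparison where 0.314% of 14956 genes were called higher and 0.174% lower. Beside such shares, and from 2 WT libraries, a count of 0 does not tell the members from other genes. The median was 0.051 against 0.015. The lowest p-values were those of EBP (103, 114 and 127 CPM against 126 and 133, log2 fold change -0.17, edgeR adjusted p = 0.465) and SCD (999, 1288 and 1468 against 1145 and 1044, 0.22, edgeR adjusted p = 0.515). SREBF1 (0.06), SREBF2 (0.05), SCAP (0.06) and INSIG1 (-0.05) had edgeR adjusted p of 0.928, 0.883, 0.85 and 0.894. FDFT1 was among the steadiest genes, at 449, 456 and 474 CPM over 8 libraries against 452 and 457.

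MCF10A hRas gave the same count: edgeR and DESeq2 called 0 of 25 outside 1q, with 1 at an unadjusted p under 0.05, and edgeR called 0.0264% of 15131 genes higher and 0.033% lower. The median was 0.055 against 0.044. NSDHL, a sterol decarboxylase, had 53.4, 58.3 and 67.0 CPM against 47.1 and 52.5 (log2 fold change 0.24, edgeR adjusted p = 0.338), and ACLY had 561, 623 and 736 against 521 and 540 (0.26, edgeR adjusted p = 0.368). SREBF1 (-0.16), SREBF2 (-0.04), SCAP (-0.18) and INSIG1 (0.01) had edgeR adjusted p of 0.658, 0.813, 0.481 and 0.964. None of the 20 further pathway genes tested was called in either MCF10A background. The clones of hRas 1q-loss stood apart from each other. The 3 basal markers summed to 603 to 4294 CPM against 3602 to 3689 in hRas WT, with TP63 at 0.513 to 68.2 against 56.8 to 60.4, and the 5 epithelial markers to 417 to 1510 against 821 to 835, with CDH1 at 2.62 to 331 against 214 to 219. Clones 1 and 3 differed by a chi-square per degree of freedom of 13.5 to 15.2, and every pair with clone 2 or clone 4 by 67.2 to 91.2. In plain MCF10A the epithelial markers summed to 978 to 1584 CPM in 1q-loss against 859 to 947 in WT. The part of these shifts in the members' levels was not tested.

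Whether hRASV12 changed the effect of 1q loss was tested as an interaction. The model held no clone term, although both backgrounds list 1q-loss clones 1 to 4 with the same method labels. Spread between clones thus counted as error, and a lack of calls does not show that the effect was the same. None of the 30 members was called by edgeR or DESeq2 and none had an unadjusted p under 0.05, and edgeR called 0 of 16492 genes in either direction, which is 0% higher and 0% lower, with 366 genes at an unadjusted p under 0.05. SCD (-0.36, SE 0.21) and SCAP (-0.24, SE 0.15) had the lowest p-values. hRASV12 alone, compared between the 2 hRas WT and the 2 plain WT libraries, left 23 of 30 members below 0 with a median of -0.17 against -0.01 over all genes. MVD was the 1 member called lower, at 104 and 109 CPM against 137 and 139 (-0.37, SE 0.073, edgeR adjusted p = 0.0235), and 0 were called higher. This call was lost when any 1 of the 4 libraries was left out (highest edgeR adjusted p 0.34). Over all 14646 genes 0.703% were called higher and 0.915% lower. MVK (-0.35, edgeR adjusted p = 0.0743) and HMGCS1 (-0.38, edgeR adjusted p = 0.0745) came next. With the replicate number added to the model, 6 members were called lower: MVD, MVK, HMGCS1, IDI1, HSD17B7 and LSS. In that fit 1.84% of all genes were called higher and 3.02% lower.

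Loss of 7p in A2058 removes no member gene, and none of the 30 members was called by edgeR or DESeq2, with 3 at an unadjusted p under 0.05 and 0.106% of 15053 genes called higher and 0.352% lower. All 30 overlapped WT, and the median was -0.0011 against 0.018. The lowest p-values were those of SCAP (100 to 110 CPM against 109 to 122, log2 fold change -0.15, edgeR adjusted p = 0.296) and SCD (420 to 584 against 549 to 592, -0.22, edgeR adjusted p = 0.332). SREBF1 (0.26), SREBF2 (0.21) and INSIG1 (0.22) had edgeR adjusted p of 0.641, 0.663 and 0.657.

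Behind that count the 3 clones of 7p-loss disagreed. In 19 members clone 1 lay above the WT mean and clones 2 and 3 both below it, and in 3 the order was reversed. Clones 2 and 3 lay on the same side in 28 of 30. How many of all genes did so was not counted. Over all genes, clones 2 and 3 differed by a chi-square per degree of freedom of 10.1 to 32.3. Clone 1 differed from them by 54.2 to 80.9, so the split was not particular to the members. FASN read 1340 and 1073 CPM in clone 1, 463 and 416 in clone 2, 497 and 427 in clone 3, and 437 to 525 in WT. STARD4 read 15.9 and 18.5 in clone 1, 6.36 to 7.45 in clones 2 and 3, and 9.05 to 9.74 in WT. Both genes put clone 1 alone above WT. MSMO1 differed from the WT mean by 0.76, -0.31 and -0.35 in clones 1, 2 and 3, SREBF2 by 0.64, -0.06 and -0.10, and SQLE by 0.38, -0.63 and -0.72. TM7SF2 went against the others, at 2.82 and 3.78 CPM in clone 1 and 10.4 to 16.97 in clones 2 and 3, with 8.96 to 16.2 in WT. The 5 melanocyte markers summed to 906 to 2869 CPM in 7p-loss against 1656 to 2687 in WT, with TYR at 0.0966 to 1061 against 96.6 to 156, and their part in the members' levels was not tested.

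SREBF1 read 140 and 113 CPM in 7p-loss clone 1, 260 and 184 in clone 2, and 242 and 202 in clone 3, against 141 to 182 in WT. It lies on 17p, where the median difference of genes was -0.48 in clone 1 and 0.0044 and 0.042 in clones 2 and 3, and the part of that shift in its level was not tested. Without clone 1, 5 members were called: SREBF1 higher (0.49), and PMVK (-0.70), SQLE (-0.66), MVD (-0.63) and SCD (-0.30) lower. In that fit 2.42% of 15076 genes were called higher and 3.54% lower. PMVK, which lost no copy here, then read 22.3 and 29.97 CPM in clone 2 and 25.5 and 32.5 in clone 3, against 37.997 to 58.6 in WT.

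**Figure D5:**
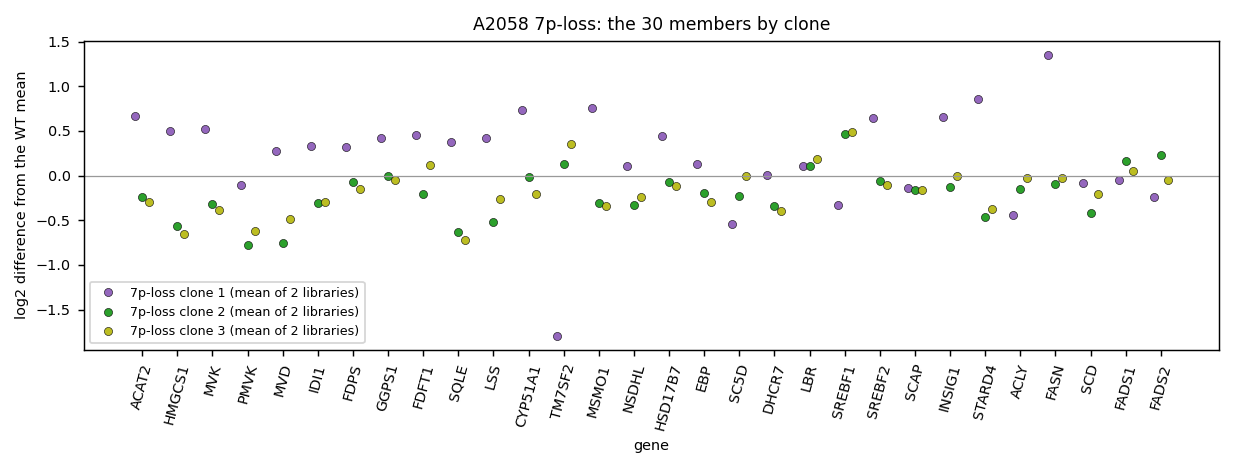
Log2 difference from the WT mean of each member in the 3 clones of A2058 7p-loss, each point the mean of 2 libraries of a clone. Clone 1 lies to the other side of 0 from clones 2 and 3 in 22 of 30 genes, with FASN at 1.35 and TM7SF2 at -1.79 as its extremes. No such count was made over all genes.

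Loss of 8q removes a copy of SQLE (chr8:124998497-125022283, plus strand, GRCh38). In A2058 8q-loss SQLE read 32.9, 33.0, 38.2 and 28.3 CPM against 34.6, 35.9, 42.4 and 42.7 in WT, which overlap, and it was not called (log2 fold change -0.24, SE 0.11, edgeR adjusted p = 0.416), where 38.3% of 342 genes of 8q were called lower. In the 1q-loss clones of this line, which were not engineered at 8q, SQLE read 25.9 to 28.4 CPM, beside 28.3 to 38.2 in 8q-loss. Both comparisons use the same 4 WT libraries, as does that of 7p-loss.

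Outside 8q, 2 of 29 members were called higher in A2058 8q-loss and 0 lower, against 0.554% and 0.642% of 14799 genes, and the median was 0.18 against 0.012. INSIG1 read 73.6, 70.1, 71.5 and 59.0 CPM against 41.9, 46.3, 54.5 and 49.4 in WT (log2 fold change 0.51, SE 0.10, edgeR adjusted p = 0.0363). STARD4 read 15.2, 14.6, 12.6 and 12.6 against 9.74, 9.39, 9.70 and 9.05 (0.54, SE 0.11, edgeR adjusted p = 0.0459). In both genes the groups stood apart, as they did in IDI1, HMGCS1 and SREBF2, which were not called (0.27, 0.29 and 0.22, edgeR adjusted p = 0.137, 0.146 and 0.249). SREBF1 (-0.07, edgeR adjusted p = 0.867) and SCAP (0.00, edgeR adjusted p = 0.991) were not called either. INSIG1 was thus called in 1q-loss and 8q-loss of A2058 with opposite signs, and not in 7p-loss. The 8q-loss call of INSIG1 was lost under 11 of 19 alternatives and that of STARD4 under 14 of 19, among them for both without clone 1, with clones summed, and without any 1 of WT 1, 2 and 4. Without clone 1 the 1 member called was SCD, lower (-0.41, edgeR adjusted p = 0.0448). Of the 5 melanocyte markers, TYR read 2.08 to 6.60 CPM in 8q-loss against 96.6 to 156 in WT and MLANA 1.59 to 2.70 against 13.9 to 23.7, while the sum of all 5 overlapped (1758 to 2623 against 1656 to 2687). The part of this in the members' levels was not tested.

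HCT116 has almost no SQLE message to lose. It had 0 counts in all 4 8q-loss libraries and 0 and 2 in the WT libraries, where 3 counts, the limit that a count of 0 allows, are 0.0968 to 0.116 CPM. In A2058 SQLE had 417 to 1511 counts per library. Its neighbours on 8q, NSMCE2, TRIB1 and WASHC5, had 392 to 528, 955 to 1768 and 183 to 525 counts in HCT116 8q-loss and 586 to 690, 1434 to 1562 and 244 to 483 in WT. SQLE was not tested in this line, and no fold is given.

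None of the 29 members outside 8q was called by edgeR in HCT116 8q-loss, with 9 at an unadjusted p under 0.05, where 0.0261% of 15331 genes were called higher and 0.117% lower. The comparison called 0% of 328 genes of 8q itself, although their median was -0.57 and 79 had an unadjusted p under 0.05. Members lay mostly above 0 (24 of 29), with a median of 0.46 against 0.027. In 13 all 4 8q-loss libraries lay above both WT libraries. How many of all genes stood apart in this way was not counted, so the 13 does not tell the members from other genes. FDFT1 read 274, 307, 285 and 285 CPM against 146 and 134 (log2 fold change 1.04, SE 0.25, edgeR adjusted p = 0.239), and HMGCS1 read 22.2, 27.2, 36.1 and 36.1 against 5.18 and 14.9 (1.60, SE 0.44, edgeR adjusted p = 0.444). DESeq2 called both higher (1.05, adjusted p = 0.0122, and 1.61, adjusted p = 0.021), beside 0.266% of all genes. HMGCS1 differed from WT by 1.47 in clone 1 and 2.03 in clone 2. It lies on 5p, whose genes had a median difference of -0.01 in clone 1 and 0.23 in clone 2. FDFT1 lies on 8p, with -0.05 and 0.15. The part of these arm shifts in the members' levels was not tested. INSIG1 had a fold change of 1.11 (edgeR adjusted p = 0.625), SREBF2 of 0.48, SREBF1 of -0.11 and SCAP of -0.14. The 2 WT libraries differed from each other in HMGCS1 and STARD4 (1.29 and 5.07 CPM) by more than the 8q-loss libraries of a clone did.

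The further pathway genes were not called in any of the A2058 7p-loss, A2058 8q-loss, HCT116 8q-loss or hRASV12 comparisons, with 20, 19, 20 and 20 tested. The control groups of A2780 also differed. TK+ against WT, with 2 libraries each, called TM7SF2 higher, at 76.2 and 78.3 CPM against 53.1 and 55.4 (log2 fold change 0.51, SE 0.082, edgeR adjusted p = 0.00115). It called SCD (451 and 468 against 611 and 629, -0.43, SE 0.085, edgeR adjusted p = 0.00548), MSMO1 (13.3 and 14.3 against 18.5 and 20.1, -0.48, SE 0.12, edgeR adjusted p = 0.0211) and DHCR7 (61.7 and 61.7 against 77.9 and 78.5, -0.34, SE 0.079, edgeR adjusted p = 0.0146) lower. That is 1 of 30 higher against 5.16% of 14888 genes and 3 of 30 lower against 6.05%. The 3 lower calls were lost when either WT library was left out. ABCG1 had 63 to 96 counts in TK+ and 2 to 7 in WT, and ABCA1 was 0.63 higher (SE 0.13, edgeR adjusted p = 0.00661). Both groups served together as controls of A2780 1q-loss, and none of these 4 members was called there.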

How the data were processed

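Poly-A RNA was sequenced in 62 libraries. The deposited tables hold raw counts per gene that the authors made, per the submitters' processing notes, with HISAT2 2.0.5 and featureCounts 1.5.0-p3 on hg38. The tables of A2780 carry GRCh37 coordinates, and whether counting used the strand is not given in the sources used here. Every row named a gene. Coordinates other than promoter windows are those of the GRCh38 tables.

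The labels' cell line, genotype and hRASV12 status set the groups. Each loss group was fitted with its own controls by the quasi-likelihood test of edgeR 4.0.16 (R 4.3.3, filterByExpr with a minimum count of 10 and a minimum total of 15, TMM scaling), and p-values were adjusted over all genes tested. CPM were scaled over all libraries of a line. Counts of members whose libraries or clones stood apart were made for the members only, without such a count over all genes. DESeq2 1.42.0 was run as an alternative, and the scripts were tested on simulated data. Promoter letters were searched in Python 3.11.15, on both strands, in the first window RefSeq lists for a gene.

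The members, the further pathway genes and the comparisons were chosen with earlier results of these data known. On a lost arm every member was named. Elsewhere the up to 8 called members with the largest fold change were named, or the 2 of lowest p where none was called, with SREBF1, SREBF2, SCAP and INSIG1 always, and up to 3 called further genes. Other genes named were chosen after their values were seen. The joint fit of 3 lines and the sum of AGS clones 6 and 7 were added after seeing the data. Alternatives changed the scaling, the filter, the tool, the controls, the clones as units, the replicate numbers and each left-out library. Library sizes of 15042068 to 30984036 counts limit precision for scarce members such as CYP51A1 and HSD17B7.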

Additional observations from a re-analysis of the deposited data

Results flagged for a closer look

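Of 82 sets of a member and a group of 4 to 10 libraries, 5 held a library far from the others of its group, and chance gives about 1 in 20. AGS 1q-loss clone 11 accounted for 4 of them. It read 9.78 CPM for MVK where the other 4 clones read 21.9 to 23.4, 26.0 for FDPS against 51.2 to 59.7, 33.6 for SC5D against 55.1 to 62.4, and 30.6 for INSIG1 against 65.6 to 79.6. Clone 11 was also the only AGS loss clone made by ReDACT-CO, so clone and method cannot be told apart. HSD17B7 read 27.2 CPM in MCF10A hRas 1q-loss clone 3 replicate 1, where the other 7 libraries read 17.4 to 21.8.

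The effect of 1q loss on the members outside 1q differed between lines, in the joint edgeR fit, for 21 members between AGS and A2058, 15 between AGS and MCF10A and 7 between MCF10A and A2058. Between AGS and A2058 the largest differences were those of ACAT2 (2.83 on the log2 scale), DHCR7 (2.59) and FDFT1 (2.38), and on 1q itself FDPS (0.96) and PMVK (0.93) differed. Between AGS and MCF10A they were those of HMGCS1 (2.18), ACAT2 (2.17) and DHCR7 (1.98), with FDPS at 0.96 on 1q. Between MCF10A and A2058 they were those of TM7SF2 (1.25), SCD (1.16) and SC5D (1.07). The joint fit gives each gene 1 spread for all lines, which can overstate certainty.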

How the results depend on the processing

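Of 1042 values of 66 called or on-arm members over the alternatives, 806 kept their direction and their side of the threshold, 229 kept the direction but lost the call, 7 gained a call and 0 turned direction. The count of members called in A2058 1q-loss stayed within 1.5 times the reported count under every alternative run. Where a count moved by more than that: A2058 8q-loss, 2 as reported, gave 1 with no filter and 0 with clones summed, with WT 1 and 2 only or with WT 3 and 4 only. HCT116 8q-loss, 0 as reported, gave 2 by DESeq2 and 1 with no filter. AGS 1q-loss, 14 as reported, gave 0 with TK+ controls only and 2 with clones 6 and 7 summed. A2780 1q-loss, 8 as reported, gave 5 with no filter, 3 with clones summed, 4 with WT only and 1 with TK+ only. MCF10A hRas 1q-loss, 0 as reported, gave 1 by DESeq2. The hRASV12 comparison, 1 as reported, gave 2 by DESeq2 and 5 with no filter. Summing or dropping controls leaves fewer samples, and otherwise the cause was not tested.

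No comparison passed the rule for same-numbered libraries deviating together, which asks for at least 3 pairs, all with a correlation over 0.1. Correlations ran from -0.178 to 0.317 in A2780 1q-loss and from 0.0918 to 0.165 in MCF10A 1q-loss. A2058 1q-loss, A2058 8q-loss, HCT116, hRASV12 alone and TK+ of A2780 had only 1 or 2 pairs and could not pass. The 1 pair of TK+ had a correlation of 0.154. With the number as a replicate block, members called were 17 in A2058 1q-loss, 0 in 8q-loss of A2058 and HCT116 and in A2058 7p-loss, 7 in A2780 1q-loss, 3 in MCF10A, 0 in MCF10A hRas and in the interaction, 6 for hRASV12 alone and 8 for TK+ of A2780.

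Leaving out 1 library or clone at a time gave 18 to 21 members in A2058 1q-loss, 0 to 5 in 7p-loss, 0 to 2 in 8q-loss, 0 in HCT116, 0 to 20 in AGS, 3 to 8 in A2780, 0 to 4 in MCF10A, 0 in MCF10A hRas, in the interaction and for hRASV12 alone, 1 to 13 for TK+, 20 to 21 for AGS against A2058 and 9 to 18 for AGS against MCF10A. Where 1 library remained in a group, it was taken to vary like the others. Depth limits scarce members, among them HSD17B7, at 4.64 to 8.83 CPM in the 1q-loss and WT libraries of A2058, and FDPS, at 4.89 to 13.01 in A2780.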
